A study of Mus musculus with 5 samples.

Results

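Type 2 innate lymphoid cells (ILC2s) of the mouse lung were compared between tumour-free animals and animals that had carried a tumour for 3 weeks, in both cases sequenced fresh, without culture. The cells were chosen from 2 of the 5 single-cell libraries of the study by the genes they carried. A barcode was kept when it had at least 200 genes, under 5% of its unique molecular identifiers (UMIs) from mitochondrial genes, and at least 1 UMI of Gata3 or Il1rl1. Gata3 is the transcription factor that defines the lineage and Il1rl1 encodes ST2, the receptor for IL-33. Of 8 genes of early thymocytes and T cells (Dntt, Ptcra, Arpp21, Myl10, Ly6d, Rag1, Cd3d and Cd3e), a kept cell carried at most 1. These limits left 5712 of 6953 naïve barcodes and 582 of 1838 week 3 barcodes, 6294 cells in all, out of 18628 barcodes in the 5 libraries. The 10 genes of the rule are therefore not results here, and their values are given only to describe the cells.

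All libraries came from wild-type (WT) C57BL/6 mice, which the study's methods give as females aged 4 to 8 weeks, with the cells of 5 mice pooled into 1 library per group. The naïve ILC2s came from animals without a tumour. The methods describe HBSS as the vehicle for control animals and do not say whether the naïve donors were among these. The ta-non-activated ILC2s came from animals 3 weeks after an injection under the skin of the right flank with TC1 cells, a line of lung epithelial cells made tumorigenic with viral oncogenes and an activated ras gene. In both groups lung cells were enriched by removing other lineages and then sorted as lineage-negative, ST2+, CD127+, Thy1.2+ and CD45+. With 1 library a side, no difference below has a replicate check and no p-value is given. Animals, week, library and processing version cannot be told apart.

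ILC2s are tissue-resident lymphocytes without antigen receptors. They respond to the epithelial alarmins IL-33 and TSLP and to neuropeptides and lipid mediators. Once stimulated they secrete IL-5, which recruits eosinophils, IL-13, which acts on epithelium and muscle, and amphiregulin, which promotes tissue repair.

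The gated naïve cells held 29056404 UMIs and the gated week 3 cells 1763054, with medians of 4519 and 2864 UMIs per cell and of 1765 and 1130 genes per cell. The median mitochondrial share was 2.39% in naïve and 3.20% in week 3 cells. All 14 genes of the ILC2 marker list (among them Il7r, Rora, Id2, Thy1, Icos, Arg1, Areg and Klrg1) were found in more than 5% of the gated naïve cells, and none was at 0 in either library. Gata3 stood at 854 CPM (UMIs of the gene among every 1000000 UMIs) in naïve and 694 CPM in week 3 cells, and Il1rl1 at 873 and 433 CPM. Both genes were found in 4613 naïve and 297 week 3 cells. The 2 libraries shared 7 barcodes, of which 2 were gated in both.

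The gate acted very differently on the 2 libraries. Of the cells that passed the limits on gene number and mitochondrial share it kept 89.4% in naïve and 36.4% in week 3. In week 3, 890 cells were left out because they carried more than 1 of the 8 thymocyte and T-cell genes, against 378 in naïve, and 129 and 299 were left out because they carried neither Gata3 nor Il1rl1. Just inside the limit, 36 week 3 and 232 naïve gated cells carried exactly 1 of the 8 genes. Just outside it, 7 week 3 and 164 naïve cells with Gata3 or Il1rl1 carried exactly 2. The 8 genes summed to 22.1 CPM in gated week 3 and 13.2 CPM in gated naïve cells, against 6163 CPM in the 890 week 3 cells left out for these genes. Those 890 cells are called thymocyte-like below, although 320 of them carried Gata3 or Il1rl1. Their level of a gene is given beside some of the results that RNA shared between droplets could touch. Where a share of thymocyte-like cells is given, it is over those without Gata3 and Il1rl1.

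Levels are UMIs of a gene summed over the gated cells of a library, in CPM of all UMIs of the genes common to the libraries. The range in parentheses after a fold is its exact 95% interval, which covers counting error only and not the difference between mice or libraries. A gene counts as higher or lower when the log2 ratio of (CPM + 1) reached 1 in either direction, which is 2-fold, and genes were counted when the mean of the 2 CPM values was at least 20.

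Of 5355 genes counted, 150 (2.8%) were higher and 1357 (25.3%) were lower in week 3 than in naïve ILC2s. This split followed the length of the genes' introns. Genes with 10 kb or more of intron, which was taken as the gene's span outside any annotated exon, are called long-intron here. They made up 3713 of the genes counted and 1315 of the lower ones (96.9%), with 24 higher. Among the 1642 short-intron genes 126 were higher (7.67%) and 42 were lower (2.56%).

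The median log2 ratio was lower in each longer bin of intron length. It was 0.48 over the 366 genes with under 1 kb of intron, 0.29 over the 618 genes with 5 to 10 kb, and -0.30 over the 1303 genes with 20 to 50 kb. Over the 846 genes with 50 to 100 kb it was -1.04, and over the 739 genes with 100 kb or more it was -1.91, with 81.1% of that last bin lower. Spearman's rank correlation between intron length and ratio was -0.71 across the 5355 genes, which are not independent replicates. Cell Ranger 6.0.0 made the naïve matrix, by its header, and 3.0.2 the week 3 matrix, and the part of this difference in the trend was not tested.

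**Figure D1:**
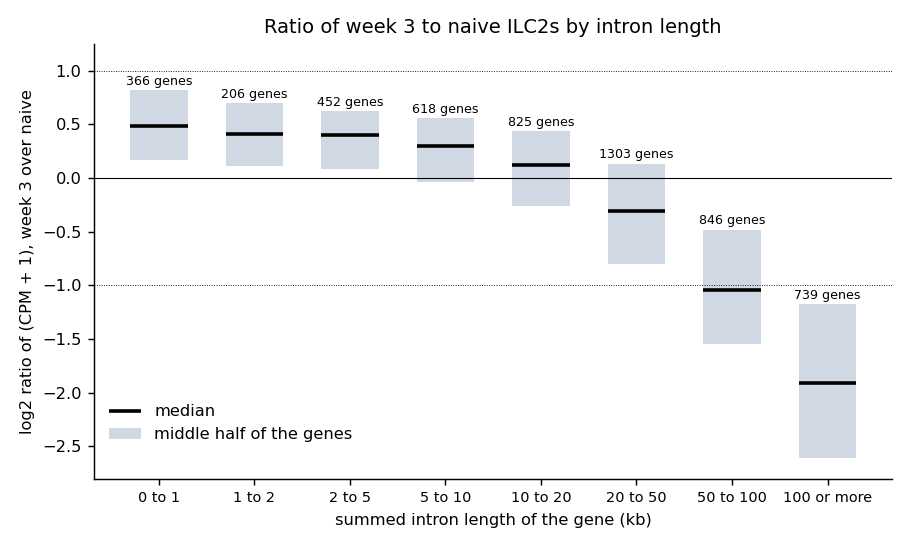
Log2 ratio of (CPM + 1) of week 3 over naïve ILC2s (y axis) for the genes counted, grouped by the summed intron length of the gene in kb (x axis). Black lines are medians and boxes run from the lower to the upper quartile of a bin, dotted lines mark 2-fold, and the median falls from 0.48 in the shortest bin to -1.91 in the longest.

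A pair of potassium channel genes was among the 10 long-intron genes with the smallest ratios. Kcnq5, which encodes a potassium channel, stood at 1696 CPM in naïve and 18.7 CPM in week 3 cells, and Kcnd2, another potassium channel gene, at 252 and 1.70 CPM. The other 8 long-intron genes with the smallest ratios were Tex14, Cmss1, Raet1e, Lrrc4, Fam196b, Fgfr2, Maml2 and Ankrd28. Tex14, Raet1e, Lrrc4, Fam196b and Fgfr2 had 0 UMIs in week 3 against 61.5 CPM (Tex14) to 41.9 CPM (Fgfr2) in naïve cells. In the week 2 ta-non-activated library those 5 genes were likewise at or below 0.122 CPM. The comparison below therefore rests on short-intron genes, and long-intron genes with a call are named as such. Genes given as values without a call are not marked in every case. The ratio less the median of the gene's intron-length bin is given where it ends a call and, for several genes, where it makes one.

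The short-intron genes had a median log2 ratio of 0.38 and the long-intron genes of -0.57, so a short-intron gene at an equal level in both libraries was already below the middle of its class. Less the median of the bin, 305 genes (5.7%) were higher and 505 (9.43%) lower, and among the short-intron genes 41 were higher and 101 lower. The counts of each gene list below are to be read against the shares over all genes counted. As measured these were 2.8% higher and 25.3% lower, with 1315 of the 3713 long-intron genes lower.

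**Figure D2:**
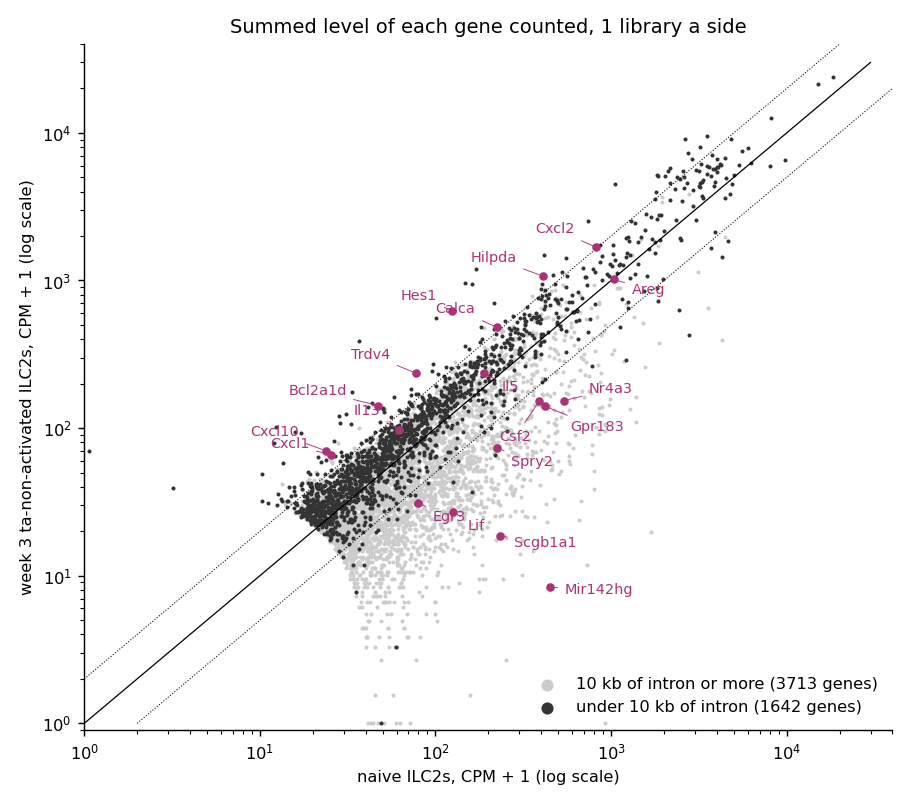
Level of each gene counted in naïve (x axis) and week 3 ta-non-activated ILC2s (y axis), in CPM + 1 on log scales, with 1 point per gene. The solid line is equality and dotted lines are 2-fold. Most long-intron genes (grey) lie below equality, while Hes1, Calca, Cxcl2, Hilpda and Trdv4 lie above the upper 2-fold line and Csf2, Gpr183, Spry2 and Mir142hg below the lower one.

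Hes1 had the largest ratio of the transcription factor genes named here. It encodes a transcriptional repressor that is the classical target of Notch signalling and lies on chromosome 16 (GRCm38, chr16:30064384-30067796, plus strand). Its level was 122 CPM in naïve and 624 CPM in week 3 ILC2s, 5.10-fold higher (4.76 to 5.46), and 1.93 on the log2 scale less its bin median. The thymocyte-like cells of the same week 3 library held 1126 CPM, so the gated cells stood at 55.5% of their level. Stmn1, a microtubule regulator of dividing cells, stood at 31.9 and 106 CPM, and Hmgn2, a nucleosome-binding protein, at 29.8 and 123 CPM. The gated week 3 levels of these 2 were 6.78% and 12.5% of the thymocyte-like level. The part of RNA from the thymocyte-like cells in these 3 differences was not tested. Without the top 5% of cells by UMIs the log2 ratio of Stmn1 was 0.43, against 1.70 with them. In the week 2, cultured week 2 and cultured week 3 libraries Stmn1 stood at 190, 496 and 315 CPM. Hmgn2 stood at 151, 137 and 95.4 CPM there, so naïve was the lowest of the 5 libraries for both genes.

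Of the type 2 cytokine genes, Il5 and Il13 differed by less than 2-fold and Il4 was lower at a low level. Il5 stood at 187 CPM in naïve and 235 CPM in week 3 cells, 1.26-fold higher (1.13 to 1.39). Its log2 ratio of 0.33 changed sign to -0.07 less the bin median. Il13 stood at 61.0 and 96.4 CPM, 1.58-fold higher (1.34 to 1.85). Over the alternatives given in the closing section its log2 ratio ranged from -0.10 to 0.85. These intervals take UMIs as independent, while at the equal depth described below 22 of 516 week 3 cells held Il13. Areg, which encodes amphiregulin, stood at 1032 and 1017 CPM. Il4, a long-intron gene, stood at 29.0 and 7.94 CPM, 3.66-fold lower (2.17 to 6.72), with 844 UMIs in naïve and 14 in week 3 cells, and was below the limit for counting. Il9, a growth factor for ILC2s themselves, had 3 UMIs in all gated naïve cells and 0 in week 3. In the week 2 library, gated in the same way, Il5 stood at 1236, Il13 at 8945 and Il9 at 12722 CPM.

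Of 21 secreted cytokine genes 10 were counted, 1 of which was higher (Calca) and 2 lower (Csf2 and Lif), with a median log2 ratio of 0.25 against -0.19 over all genes counted. Less the bin medians none was higher, 2 were lower, and the median was -0.15. Csf2 encodes GM-CSF, which sustains macrophages, dendritic cells and eosinophils. This short-intron gene (chr11:54247271-54249667, minus strand) stood at 389 CPM in naïve and 152 CPM in week 3 ILC2s, 2.56-fold lower (2.27 to 2.90). Lif, a long-intron gene for a cytokine of the IL-6 family, stood at 124 and 26.1 CPM, 4.76-fold lower (3.56 to 6.52). Il2, the lymphocyte growth factor, stood at 144 and 162 CPM and Tnf at 104 and 102 CPM.

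Calca encodes calcitonin and the neuropeptide CGRP, which ILC2s can make and sense. On chromosome 7 (chr7:114631478-114636357, minus strand), it stood at 223 CPM in naïve and 481 CPM in week 3 cells, 2.16-fold higher (2.01 to 2.32). Its log2 ratio of 1.11 was 0.71 less the bin median, under the 2-fold limit. The thymocyte-like cells held 8.22 CPM. The genes for the CGRP receptor are Calcrl, which binds the peptide, and Ramp1, which makes it specific for CGRP. Ramp1 stood at 397 and 590 CPM, whereas the long-intron gene Calcrl, which endothelial cells also express, stood at 314 and 44.2 CPM.

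Of 28 neuropeptide and lipid mediator genes 11 were counted, with a median log2 ratio of -0.10. Calcrl, Vipr2, Cysltr2 and Alox5, all long-intron genes, were the 4 lower. The leukotriene receptor genes Cysltr1 and Ltb4r1 stood at 149 and 161 CPM and at 215 and 201 CPM.

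**Figure D3:**
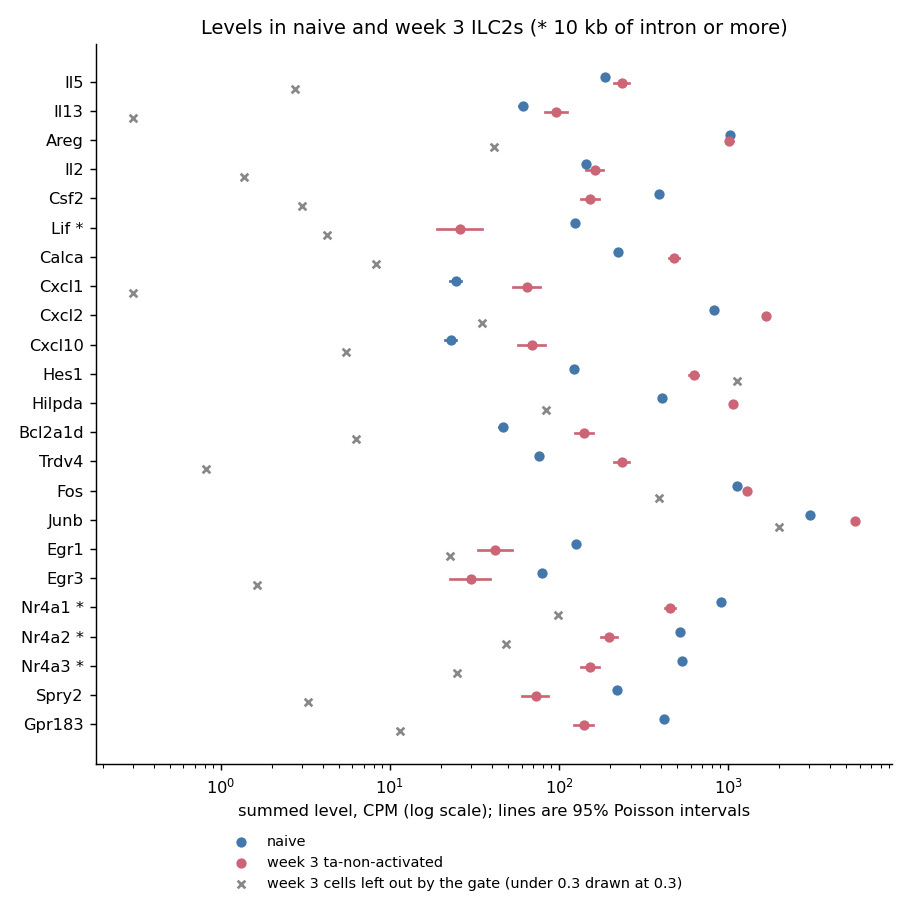
Summed level in CPM (x axis, log scale) of 23 genes in naïve (blue) and week 3 ta-non-activated ILC2s (red), with 95% Poisson intervals as lines, and in the week 3 thymocyte-like cells left out by the gate (grey crosses). An asterisk marks a long-intron gene. Il5, Areg and Il2 lie close together, Hes1 is the 1 gene of these whose cross lies above both circles, and Csf2, Egr1, Egr3, Spry2 and Gpr183 are lower in week 3.

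A set of 3 chemokine genes of the CXC family was higher in week 3. Cxcl1 and Cxcl2 encode ligands of CXCR2 that attract neutrophils, and Cxcl10 an interferon-inducible ligand of CXCR3 that attracts T and NK cells. All 3 lie on chromosome 5, and the start of Cxcl1 is 12654 bases from that of Cxcl2. Their promoters are shown because the 3 genes were the chemokine genes past 2-fold and are known targets of NF-kB. The windows are the 250 bases before each start from RefSeq (GRCm38.p6), for Cxcl1 chr5:90890995-90891244 and for Cxcl2 chr5:90903649-90903898, both on the plus strand, and for Cxcl10 chr5:92348890-92349139 on the minus strand. Capitals mark matches on either strand to a form of the NF-kB motif (GGG, any 3 bases, TTCC) or, nearest the 5′ end in Cxcl10, to a form of the interferon-stimulated response element (TTTC, any 2 bases, TTTC).
Cxcl1: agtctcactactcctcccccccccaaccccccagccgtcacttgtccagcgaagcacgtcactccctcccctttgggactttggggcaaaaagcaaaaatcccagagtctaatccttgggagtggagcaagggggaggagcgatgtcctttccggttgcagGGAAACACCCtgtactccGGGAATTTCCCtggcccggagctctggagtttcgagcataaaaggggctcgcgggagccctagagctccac
Cxcl2: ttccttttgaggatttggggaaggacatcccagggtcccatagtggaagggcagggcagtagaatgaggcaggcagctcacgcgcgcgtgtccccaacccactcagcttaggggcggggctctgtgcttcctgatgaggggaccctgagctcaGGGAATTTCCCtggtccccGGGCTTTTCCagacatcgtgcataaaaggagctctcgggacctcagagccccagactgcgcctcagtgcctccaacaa
Cxcl10: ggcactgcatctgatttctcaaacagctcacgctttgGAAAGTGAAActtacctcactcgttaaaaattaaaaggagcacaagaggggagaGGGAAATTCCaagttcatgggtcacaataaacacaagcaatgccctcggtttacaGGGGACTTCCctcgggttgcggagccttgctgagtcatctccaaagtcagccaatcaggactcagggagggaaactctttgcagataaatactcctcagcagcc
The Cxcl1 and Cxcl2 windows each held 3 matches to the NF-kB form, a pair of which overlap in the palindromic stretch both share, and the Cxcl10 window held 2 and 1 match to the interferon form. Of 32851 promoter windows in the table, 4.65% held a match to the NF-kB form and 2.98% a match to the interferon form. A match is a description of letters and not of a bound site.

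Cxcl1 stood at 24.5 CPM in naïve and 64.7 CPM in week 3 cells, 2.64-fold higher (2.15 to 3.22). That interval takes UMIs as independent, while at the equal depth described below 11 of 516 week 3 cells held Cxcl1. Cxcl2 was the most abundant of the 3, at 824 and 1676 CPM, 2.03-fold higher (1.96 to 2.11). Cxcl10 stood at 22.8 and 69.2 CPM, 3.03-fold higher (2.48 to 3.68). In the thymocyte-like cells Cxcl1 was at 0 and Cxcl2 at 35.1 CPM. Less the bin medians the log2 ratios were 0.88 for Cxcl1, 0.54 for Cxcl2 and 1.08 for Cxcl10, so Cxcl10 alone of the 3 kept the call. Of 22 chemokine and TNF-family ligand genes 10 were counted, and beside these 3 higher the long-intron gene Tnfsf10, for the death ligand TRAIL, was lower. Ccl1, a long-intron gene for the ligand of CCR8, stood at 555 and 709 CPM. Its log2 ratio of 0.35 was 2.26 less the bin median, past the limit. That value rests on the annotated span of Ccl1, which put it in the bin of 100 kb or more. Whether the counted transcript has that span was not tested. Ltb, for lymphotoxin beta, stood at 601 and 708 CPM, and Ccl5 at 97.5 and 93.0 CPM.

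Egr1 and Egr3, the zinc-finger factors induced within minutes of receptor signalling, were lower in week 3. Egr1 stood at 126 CPM in naïve and 42.0 CPM in week 3 cells, 2.99-fold lower (2.38 to 3.82). Egr3 stood at 78.9 and 30.1 CPM, 2.63-fold lower (2.00 to 3.52). Both are short-intron genes, and less the bin medians their log2 ratios were -2.04 and -1.78. The orphan nuclear receptor genes Nr4a1, Nr4a2 and Nr4a3, all long-intron, were 2.01-fold (1.87 to 2.15), 2.63-fold (2.37 to 2.94) and 3.51-fold (3.11 to 3.98) lower. With TMM factors the log2 ratio of Nr4a1 was -0.84, under the limit.

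As measured, the AP-1 genes did not reach 2-fold. Fos stood at 1130 CPM in naïve and 1294 CPM in week 3 cells, Junb at 3061 and 5618 CPM, Jun at 628 and 528 CPM, and Fosb at 1159 and 743 CPM. Less its bin median the log2 ratio of Fosb was -1.05, past the 2-fold limit, while those of Fos, Junb and Jun stayed under it. Of 27 immediate early genes 25 were counted, none was higher and 5 were lower, against 25.3% lower over all genes counted. The median log2 ratio of the 25 was 0.04. Less the bin medians none was higher, 8 were lower and the median was -0.20. Fos and Fosb stood at 0.703 and 0.0611 CPM in the week 2 library, far under both libraries compared here.

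Among feedback regulators, Spry2, an inhibitor of receptor tyrosine kinase signalling, stood at 222 CPM in naïve and 72.6 CPM in week 3 cells, 3.05-fold lower (2.56 to 3.67). Its relative Spry1 stood at 62.9 and 81.1 CPM. Of 17 genes of MAP kinase feedback and mRNA decay 13 were counted, none was higher, and beside Spry2 the long-intron genes Zc3h12c, Rc3h1 and Cnot6l were lower. The share lower over all genes counted was 25.3%. The NF-kB list had 15 of 16 genes counted, with 1 higher and 6 lower, all 6 long-intron. Its 7 short-intron genes had a median log2 ratio of 0.30, with 1 higher and 0 lower, against -0.82 over all 15. Over all short-intron genes counted the median was 0.38. Less the bin medians none of the 15 was higher, 5 were lower and their median was -0.72. The 1 higher as measured was Nfkbie, an inhibitor of NF-kB, at 27.7 and 59.0 CPM. Its log2 ratio of 1.06 was 0.66 less the bin median. Nfkbia, the inhibitor best known as an NF-kB target, stood at 1562 and 2201 CPM. Nfkb1, a long-intron gene for a subunit of the factor, stood at 3548 and 647 CPM, and Tnfaip3, the feedback enzyme A20, at 1254 and 710 CPM. Less its bin median the log2 ratio of Tnfaip3 was -1.11, past the limit.

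Gpr183 encodes the receptor for oxysterols that guides lymphocytes within tissue. It stood at 417 CPM in naïve and 140 CPM in week 3 ILC2s, 2.97-fold lower (2.62 to 3.39), and less its bin median the log2 ratio was -1.86. Of 30 genes for chemokine receptors and tissue exit 18 were counted, none was higher and 6 were lower. These were Gpr183 and the long-intron genes Ccr4, Itga4, Itgal, Itgav and Itgb3, and over all genes counted 25.3% were lower. Cxcr6, Ccr2 and Cxcr4 stood at 641 and 620, at 521 and 471, and at 85.0 and 91.9 CPM. Ccr8 and the retention marker Cd69 stood at 278 and 180 CPM and at 739 and 446 CPM. Less the bin medians their log2 ratios were -1.04 and -1.14, past the limit.

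Several genes that identify the cells differed by less than 2-fold. Il7r, the IL-7 receptor chain used in the sort, stood at 1317 and 1476 CPM, Id2 at 578 and 711 CPM, Icos at 588 and 512 CPM, and the maturity marker Klrg1 at 67.9 and 73.2 CPM. Arg1, the arginase of lung ILC2s, stood at 375 and 244 CPM. Il7r, Icos, Klrg1 and Arg1 are long-intron genes. Less the bin medians the log2 ratios of Il7r and Icos were 0.04 and -0.32. Thy1, also used in the sort, had a log2 ratio of -0.68, and of -1.08 less its bin median, past the limit. At the equal depth described below it was found in 37.8% of naïve and 24.0% of week 3 cells. The 14 genes of the ILC2 marker list, Gata3 and Il1rl1 among them, summed to 10629 CPM in naïve and 7368 in week 3 cells. Of the others in it, the long-intron genes Rora, Il2ra and Ptprc were lower. Of 18 ILC2 transcription factor genes counted beside Gata3 none was higher and 8 were lower, all of them long-intron. Over all long-intron genes counted 1315 of 3713 were lower. The median log2 ratio of the 18 was -0.47, and 0.24 less the bin medians. Rora, the factor needed for ILC2 development, stood at 3134 and 1133 CPM, and its log2 ratio changed sign from -1.47 to 0.44 less the bin median. Bach2, Tox and Runx1, which restrain or shape lymphocyte differentiation, stood at 671 and 31.2, at 917 and 104, and at 570 and 78.8 CPM. Less the bin medians their log2 ratios were -2.48, -1.22 and -0.93.

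Of 26 cytokine receptor genes 19 were counted beside Il1rl1, none was higher and 5 were lower, the long-intron genes Il2ra, Il2rb, Il18r1, Tgfbr1 and Tgfbr2. That share is near the 25.3% lower over all genes counted. Crlf2, the short-intron gene for the TSLP receptor, stood at 47.4 and 81.7 CPM, 1.72-fold higher (1.44 to 2.05). Il17rb, the IL-25 receptor, stood at 58.2 and 40.3 CPM. In the TGF-beta list 6 of 12 genes counted were lower, all long-intron, with a median log2 ratio of -1.12 that was -0.21 less the bin medians. Among 12 inhibitory and costimulatory receptor genes counted none was higher and 4 were lower, again all long-intron. Of all long-intron genes counted, 1315 of 3713 were lower. Tnfrsf18, which encodes GITR, stood at 322 and 508 CPM, and Pdcd1, a long-intron gene that encodes PD-1, at 64.5 and 60.1 CPM.

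Glycolysis genes were mostly above equality, although few reached 2-fold. Of 24 genes for glycolysis and hypoxia 16 were counted, 2 were higher and 2 lower, and the median log2 ratio was 0.53, or 0.50 less the bin medians. Ldha, which makes lactate, stood at 352 CPM in naïve and 779 CPM in week 3 cells, 2.21-fold higher (2.09 to 2.34). Eno1, the enolase, stood at 71.2 and 182 CPM, 2.56-fold higher (2.27 to 2.88). Less the bin medians the log2 ratios of Ldha, a long-intron gene, and Eno1 were 1.02 and 1.05. Gapdh, Aldoa, Pgk1 and Pkm were 2.00-fold (1.89 to 2.12), 1.84-fold (1.71 to 1.97), 1.81-fold (1.58 to 2.08) and 1.70-fold (1.55 to 1.86) higher without a call. The lower genes were the long-intron genes Slc2a1, for the glucose transporter GLUT1, and Pfkfb3.

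In lipid metabolism the list held 9 genes counted, none higher and 6 lower, of which Dgat1 was the short-intron one. Over all genes counted 25.3% were lower. Less the bin medians 2 of the 9 were lower, and the median log2 ratio was -0.32 against -1.03 as measured. Dgat1 encodes the enzyme that completes triglyceride synthesis and stood at 205 CPM in naïve and 99.8 CPM in week 3 cells, 2.06-fold lower (1.77 to 2.40). Less its bin median the log2 ratio was -1.33. It stayed past 2-fold in 6 of the 14 alternatives given in the closing section. Hilpda, which is in none of the lists and was chosen after its values were seen, encodes a hypoxia-induced protein of lipid droplets. Its level was 406 and 1070 CPM, 2.63-fold higher (2.51 to 2.77), and its log2 ratio of 1.40 was 0.98 less the bin median. In the arginine and polyamine list 1 of 12 genes counted was higher, Ass1, the argininosuccinate synthase, and the long-intron transporter genes Slc7a1 and Slc7a5 were lower. Ass1, itself long-intron, stood at 24.3 and 59.0 CPM, and at 96.4 CPM in the thymocyte-like cells.

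Bcl2a1d, of the anti-apoptotic A1 family, was the 1 higher of 12 survival genes counted. It stood at 46.3 CPM in naïve and 141 CPM in week 3 cells, 3.05-fold higher (2.65 to 3.49), and its near-identical copy Bcl2a1b at 30.3 and 54.5 CPM, so the split of reads between the copies is uncertain. Bcl2, Bcl2l1 and Birc3, the 3 lower, are long-intron genes, and the log2 ratio of Bcl2 changed sign from -1.10 to 0.81 less the bin median. Mcl1 stood at 157 and 184 CPM.

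A pair of actin regulators was higher among 20 genes of actin and secretion, all counted. Tmsb10, a thymosin that binds actin monomers, stood at 2016 and 5096 CPM, 2.53-fold higher (2.47 to 2.58), and Cfl1, the severing protein cofilin, at 527 and 1141 CPM, 2.17-fold higher (2.07 to 2.27). Less the bin medians neither kept the call, at 0.85 and 0.70. Actb itself stood at 6273 and 6226 CPM. Of 16 heat shock genes counted Hspa8 was higher at 866 and 1742 CPM, with a log2 ratio of 1.01 that was 0.61 less the bin median, and the long-intron genes Hsph1 and Hspa4 were lower. At the equal depth described below, Tmsb10, Cfl1 and Hspa8 were found in 68.4%, 90.2% and 99.1% of thymocyte-like cells. The part of RNA from those cells in these differences was not tested.

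The lists of interferon-induced and MHC genes held 1 call, while Cxcl10, described above, and H2-Q4, given below, are called genes outside these lists. Of 44 interferon-induced genes 10 were counted, none was higher or lower, and the median log2 ratio was 0.02. Isg15 and Irf7, both below the limit for counting, stood at 6.64 and 24.4 CPM and at 6.09 and 21.0 CPM, and at 207 and 27.7 CPM in the thymocyte-like cells. Of 18 MHC class I genes counted the long-intron regulator Nlrc5 was lower. H2-K1, H2-D1 and B2m stood at 1779 and 1813, at 1364 and 2433, and at 1419 and 1286 CPM. The 3 class II genes counted had no call. Of 11 cell cycle genes counted Stmn1 was higher and the long-intron gene Ccnd3 lower, and the proliferation marker Mki67 stood at 13.1 and 10.2 CPM, below the limit for counting.

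**Figure D4:**
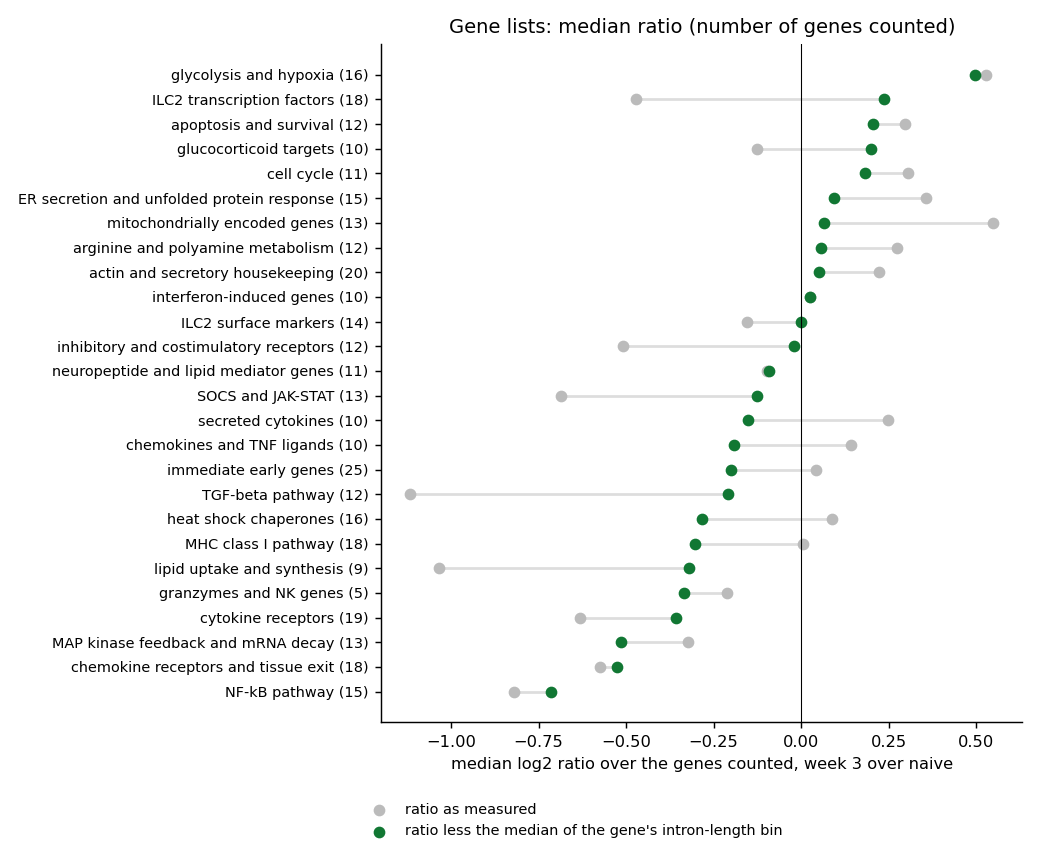
Median log2 ratio of week 3 over naïve ILC2s (x axis) over the genes counted of each list (y axis, number of genes in parentheses), as measured (grey) and less the median of each gene's intron-length bin (green). Glycolysis and hypoxia stays near 0.50 on both scales, ILC2 transcription factors cross from -0.47 to 0.24, and NF-kB pathway genes lie at -0.82 and -0.72. The 7 short-intron genes of the NF-kB list have a median of 0.30 as measured, against 0.38 over all short-intron genes counted.

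Most other lists had calls on long-intron genes alone. In the SOCS and JAK-STAT list Jak2, Stat3, Stat5b and Bcl6 were lower of 13 genes counted, while the short-intron feedback gene Socs1 stood at 54.9 and 76.0 CPM. Among 10 glucocorticoid targets counted Fkbp5, Zbtb16 and Nr3c1 were lower, and Tsc22d3, which encodes GILZ, stood at 140 and 265 CPM. In the list of protein secretion and the unfolded protein response Ern1 and Atf6 were lower of 15 genes counted, with Ern1, the sensor IRE1, at 1384 and 108 CPM, and the chaperone Hspa5 stood at 396 and 432 CPM. Of 14 surface marker genes counted Ptprc and Cd44 were lower, and of 5 granzyme and NK genes counted the short-intron gene Klrk1 was.

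Several of the largest ratios of short-intron genes set the naïve library apart from all 4 others. Rbm42, an RNA-binding protein, had 2 UMIs in gated naïve cells, at 0.0688 CPM, and stood at 68.6 CPM in week 3 cells and at 82.6, 55.0 and 60.2 CPM in the week 2, cultured week 2 and cultured week 3 libraries. Amd2, of polyamine synthesis, stood at 2.20 CPM in naïve and 38.6 CPM in week 3 cells, with 15.7 to 30.4 CPM in the other 3. H2-Ke6 stood at 11.4 and 102 CPM and Gstp1, a glutathione transferase, at 11.1 and 78.3 CPM, with 24.8 to 42.9 CPM and 25.5 to 49.5 CPM in the other 3. H2-Q4, a class Ib MHC gene among near-identical neighbours, stood at 32.5 and 175 CPM, and H2-Q7 at 368 and 316 CPM. Amd2, Gstp1 and H2-Q4 have near-identical copies in the genome, so their counts are uncertain. The thymocyte-like cells held Rbm42 at 80.7, Amd2 at 27.5, H2-Ke6 at 39.8, Gstp1 at 206 and H2-Q4 at 74.1 CPM. The part of their RNA in these differences was not tested.

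For Grcc10, Prr7 and Snrpg week 3 was above the 4 other libraries. Grcc10 stood at 16.1 and 91.3 CPM and at 6.45 to 21.0 CPM in the others. Prr7, an adaptor of antigen-receptor signalling, stood at 42.4 and 146 CPM and at 12.3 to 16.6 CPM in the others. Snrpg, an RNA-processing gene, stood at 213 and 706 CPM and at 372, 215 and 230 CPM in the week 2, cultured week 2 and cultured week 3 libraries. Alyref, of RNA export, stood at 40.0 and 138 CPM and at 294, 188 and 119 CPM in those 3 libraries. Polr2l, an RNA polymerase subunit, stood at 12.5 and 57.3 CPM and at 97.8, 43.2 and 45.2 CPM. For Alyref and Polr2l the naïve library was the lowest of the 5. In the thymocyte-like cells of week 3 Grcc10, Prr7 and Snrpg stood at 77.4, 15.9 and 934 CPM. Alyref and Polr2l stood at 472 and 158 CPM in them. The part of RNA from those cells in the week 3 levels was not tested.

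Of the 80 ribosomal protein genes counted 14 were higher and 9 lower, with log2 ratios from -2.72 to 2.10, and together they took 23.03% of UMIs in naïve and 31.8% in week 3 cells. Of 13 mitochondrially encoded genes 2 were higher, mt-Nd4l at 169 and 1202 CPM and mt-Atp8 at 35.6 and 390 CPM, whereas mt-Co1 stood at 4162 and 6110 CPM. The part of library and processing version in these differences was not tested.

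Trdv4, a variable segment of the T-cell receptor delta locus, is in no list and was chosen after its values were seen. It stood at 76.4 CPM in naïve and 235 CPM in week 3 ILC2s, 3.07-fold higher (2.76 to 3.42), against 0.822 CPM in the thymocyte-like cells and 2.63 CPM in the week 2 library. Its log2 ratio less the bin median was 1.12.

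Of the short-intron genes with the smallest ratios, Mir142hg, the host transcript of a haematopoietic microRNA, stood at 450 CPM in naïve and 7.37 CPM in week 3 cells, and at 9.50 to 46.0 CPM in the other 3 libraries. Scgb1a1 encodes the secretoglobin of airway club cells and stood at 231 and 17.6 CPM, 13.2-fold lower (9.26 to 19.4). A single naïve cell, reduced to 2000 UMIs, held 740 UMIs of it. Klrk1, for the NK receptor NKG2D, stood at 32.9 and 10.8 CPM, 3.06-fold lower (1.95 to 5.10). Without cells that carried 2 or more markers of another cell type its log2 ratio of -1.53 was 0.67, and -0.43 when only markers rare in naïve cells were used. Sqstm1, an autophagy adaptor, stood at 254 and 95.3 CPM, and the naïve library was also higher for Oxa1l, Olfr1258, AU020206, AY036118 and Polg2, at 2.58-fold (1.96 to 3.46, Polg2) to 5.05-fold (2.88 to 9.81, Oxa1l).

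Among long-intron genes, which as a class were lower, the 10 with the largest ratios were Usp50, Pisd, Nmt1, Rab4a, Anp32a, Phb, Ass1, Cd9, Cox16 and Cd83, from 3.32-fold (2.54 to 4.29, Usp50) to 2.36-fold (1.74 to 3.15, Cd83) higher. Cd83, a surface protein of activated lymphocytes and dendritic cells, stood at 13.0 and 30.6 CPM. Without cells that carried 2 or more markers of another cell type its log2 ratio of 1.18 was 0.21, and 1.47 when only markers found in at most 5% of naïve cells were used. Cd9, a tetraspanin, stood at 17.6 and 43.1 CPM and Anp32a, a chromatin-associated protein, at 187 and 472 CPM. The thymocyte-like cells held Usp50, Nmt1, Phb and Ass1 at 74.2, 129, 109 and 96.4 CPM, above the gated week 3 cells. The rest of the 10 stood lower in them than in gated week 3 cells. Naïve was the lowest of the 5 libraries for Usp50, Pisd, Nmt1, Anp32a, Phb and Ass1. The part of RNA from the thymocyte-like cells was not tested.

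Several markers of other cell types were carried by more than 5% of naïve cells. These were Cd3g, Trbc1, Trbc2, Lck and Cd28 of the T-cell list, Tmem176a and Tmem176b of the type 17 list, Cpa3 and Kit of the mast cell list, Ighm of the B-cell list, Pecam1 and Calcrl of the endothelial list, and Scgb1a1 and Epcam of the epithelial list. With them the T-cell list summed to 1030 CPM in naïve and 1224 CPM in week 3 cells, the type 17 list to 679 and 1045 CPM, and the mast cell list to 372 and 254 CPM. The B-cell list summed to 57.6 and 66.9 CPM, the endothelial list to 401 and 65.2 CPM, and the epithelial list to 286 and 50.5 CPM. Over the markers found in at most 5% of naïve cells, the NK and ILC1 list summed to 68.0 CPM in naïve and 52.2 CPM in week 3 cells, with 4 of 10 genes at 0 in week 3. The type 17 list summed to 42.2 and 21.6 CPM, the endothelial list to 22.7 and 10.8 CPM, the epithelial list to 26.5 and 6.24 CPM, and the T-cell list to 15.3 and 12.5 CPM. The monocyte, macrophage and dendritic cell list summed to 21.0 and 26.7 CPM with 10 of 16 genes at 0 in week 3, and the mast cell and basophil list to 8.60 and 5.10 CPM. The B-cell list summed to 5.37 and 5.10 CPM, the fibroblast and muscle list to 9.02 and 1.70 CPM, and the eosinophil and neutrophil list to 0.792 and 1.70 CPM. Cells with 2 or more NK and ILC1 markers made up 1.66% of naïve and 0.344% of week 3 cells. Klrk1 moved with the NK list, Scgb1a1 with the epithelial list and Calcrl with the endothelial list, and the part of such cells in those 3 differences was not tested.

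Shares of cells with a UMI were compared at equal depth, with each cell of at least 2000 UMIs reduced at random to 2000. The reduction makes the total per cell equal, but not its split between short-intron and long-intron genes. Shares were not adjusted for the intron-length trend. This left 5529 naïve and 516 week 3 cells, with 183 and 66 shallower cells left out. Intervals in parentheses are exact 95% binomial intervals and cover counting error only. Hes1 was found in 13.4% of naïve (12.5 to 14.3) and 31.0% of week 3 cells (27.0 to 35.2), and before the reduction in 21.6% and 35.9%. Shares in thymocyte-like cells are over the 560 of them that lacked Gata3 and Il1rl1 and held at least 2000 UMIs. Among these the share of Hes1 was 65.9%, so for Hes1 these are not cells that lack the gene.

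Calca was found in 17.7% of naïve (16.7 to 18.7) and 24.8% of week 3 cells (21.1 to 28.8), against 1.07% of thymocyte-like cells. Without the reduction, at median depths of 4519 and 2864 UMIs, the shares were 25.2% and 27.3%. Trdv4 was found in 13.1% and 32.8% and in 0 of 560 thymocyte-like cells, which allows a share of up to 0.536%. Bcl2a1d was found in 7.99% and 19.96%, and Hilpda in 32.1% and 41.9%.

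The lower genes were lower by share too. Csf2 was found in 23.2% of naïve (22.04 to 24.3) and 13.0% of week 3 cells (10.2 to 16.2). Gpr183 was found in 39.5% and 16.7%, Spry2 in 27.4% and 10.5%, Egr1 in 13.6% and 6.40%, and Egr3 in 10.96% and 4.84%. The thymocyte-like cells held Egr1 at 5.54%, close to the week 3 share, and the other 4 genes at no more than 3.39%.

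For Il5 and Il13 the shares were close. Il5 was found in 17.4% of naïve (16.4 to 18.4) and 16.1% of week 3 cells (13.0 to 19.5), and Il13 in 4.97% (4.42 to 5.58) and 4.26% (2.69 to 6.38). Neither difference was detectable at this depth. Il4 was found in 2.98% (2.55 to 3.47) and 0.969% (0.315 to 2.25). Il9 was found in 0 of 5529 naïve cells, which allows up to 0.0543%, and in 0 of 516 week 3 cells, which allows up to 0.581%. Areg was found in 45.1% and 32.8% of cells although its summed levels of 1032 and 1017 CPM were close, and the 5% of cells with most Areg held 41.7% of its UMIs in naïve and 51.7% in week 3. No order was read from that share.

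**Figure D5:**
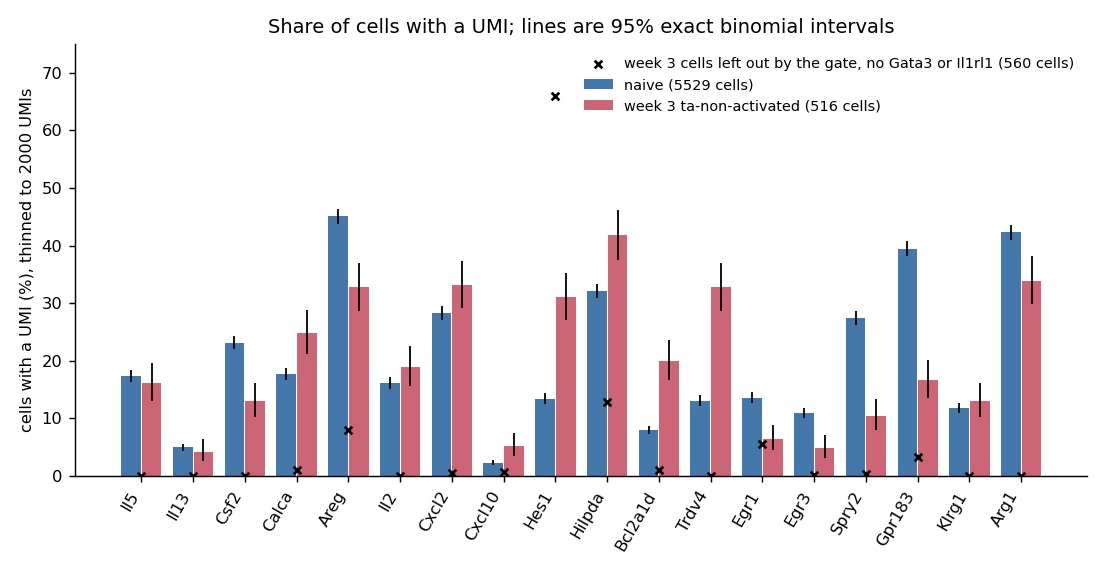
Share of cells with at least 1 UMI (y axis, %) for 18 genes (x axis) in naïve (blue, 5529 cells) and week 3 ta-non-activated ILC2s (red, 516 cells), every cell thinned to 2000 UMIs, with exact 95% binomial intervals as lines. Crosses are the 560 week 3 thymocyte-like cells that lacked Gata3 and Il1rl1. Hes1, Trdv4 and Bcl2a1d have the higher bar in week 3, Csf2, Spry2 and Gpr183 the lower one, and the cross of Hes1 is at 65.9%.

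The chemokine transcripts sat in different fractions of the cells. Cxcl2 was found in 28.3% of naïve (27.1 to 29.5) and 33.1% of week 3 cells (29.1 to 37.4), and Cxcl10 in 2.30% and 5.23%. Cxcl1 was found in 1.36% (1.07 to 1.70) and 2.13% (1.07 to 3.78), and these intervals overlap. In week 3 Cxcl1 was found in 11 cells, and 1 of them held 23 of its 70 UMIs. The 5% of cells with most Cxcl2 held 58.2% and 53.3% of its UMIs. Cxcl1 was found in 3.39% of naïve cells with Cxcl2 and 0.555% of those without it. In week 3 these shares were 5.26% and 0.580%, from 9 cells that held both.

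Cytokine transcripts were also counted cell by cell at this equal depth. In naïve ILC2s Calca was found in 25.3% of cells with Il5 and 16.1% of cells without it, and in week 3 in 42.2% and 21.5%. Il13 was found in 9.57% of naïve cells with Il5 and 4.01% of those without, and in 14.5% and 2.31% of week 3 cells, from 12 cells that held both. Areg was found in 62.0% of naïve cells with Calca and 41.4% of those without, and in 58.6% and 24.2% in week 3. Il5 was found in 20.5% of naïve cells with Hes1 and 16.9% without, and in 18.8% and 14.9% in week 3. These are shares within 1 library each and were not tested.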

How the data were processed

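The authors deposited unnormalized counts of UMIs for every gene and barcode, from the 10x Genomics 3' platform. Per the file headers Cell Ranger 6.0.0 wrote the naïve matrix and 3.0.2 the other 4, and the submitters' processing notes name 3.0.2, Seurat and GRCm38. The annotation used for counting is not given in the sources used here. The study compared cells with a Wilcoxon test in Seurat, which was not repeated because cells of 1 library are not replicates.

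Counts of the 27726 genes common to the 5 matrices were used, of the 28831 in the naïve one. Gene spans and introns came from GENCODE M21, which held 27639 of them (99.7%). Where a symbol had several rows, the row with most UMIs was used. Counts were summed over gated cells and scaled to CPM, with exact 95% Poisson intervals and binomial intervals of ratios, a pseudocount of 1 CPM and a minimum mean of 20 CPM. Shares used cells thinned at random to 2000 UMIs. Beside a share of 0 stands the upper limit from 3 counts. No doublet caller was run, and an alternative left out the top 5% of cells by UMIs.

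The cell rule, the 27 gene lists and the 12 marker lists were chosen with earlier results of these data known. Named genes are the 15 largest and 15 smallest ratios among short-intron genes, without mitochondrial, ribosomal protein, gate and unnamed model genes, the 10 largest and 10 smallest among long-intron genes, list members past 2-fold or, in lists with fewer than 3, those of the highest level, the gate genes, and markers of other cell types that move with a result. Some genes that this rule names are not reported here. Other list members are named beside them as values without a call. The ratio was tested on simulated data. Python 3.11.15, numpy 2.4.6, scipy 1.17.1, pandas 2.3.3 and matplotlib 3.10.9 were used, with R 4.3.3 and edgeR 4.0.16 for TMM factors only. The 18 other settings tried, and 1 chosen later, are given in the closing section.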

Additional observations from a re-analysis of the deposited data

Results flagged for a closer look

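For 7 short-intron genes given by the naming rule or the gene lists, the week 3 and the week 2 ta-non-activated libraries lay on opposite sides of the naïve library, each by more than 2-fold. The difference was not tested. All of these ratios share the 1 naïve library, and each week has 1 library.

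Calca, for CGRP, had a log2 ratio to naïve of 1.11 in week 3 and of -4.89 in week 2. Hes1 had 2.34 and -2.46. The chemokine genes Cxcl1 and Cxcl2 had 1.36 and 1.02 in week 3 and -3.41 and -3.61 in week 2. Csf2, for GM-CSF, was lower in week 3 and higher in week 2, with -1.35 in week 3 and 1.89 in week 2. Grcc10 had 2.43 and -1.20, and the adaptor gene Prr7 had 1.76 and -1.70. Outside the short-intron genes of the rule and lists, Trdv4 (1.61 and -4.41) and Hilpda (1.40 and -3.88), both chosen after their values were seen, and the long-intron genes Cd9 (1.24 and -2.11) and Rab4a (1.39 and -1.62) lay likewise on opposite sides. The gated week 2 cells had a median of 16310 UMIs, against 2864 in week 3 and 4519 in naïve cells, and the part of depth in these values was not tested.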

How the results depend on the processing

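The 150 higher and 1357 lower genes became 283 and 1138 with TMM factors, 306 and 1112 when centred on the median, and 305 and 505 less the median of the intron-length bin. With a minimum of 5 CPM they were 247 and 2177, with 100 CPM 64 and 364, and with no minimum 379 and 3000. Among short-intron genes the 126 higher and 42 lower became 221 and 30 with TMM factors, 233 and 30 when centred, 41 and 101 less the bin median, 206 and 93 at 5 CPM, 59 and 20 at 100 CPM, and 294 and 269 with no minimum. With the long-intron limit at 20 kb, 88 short-intron genes were lower. Of the log2 ratios of named genes and list members recomputed under the alternatives, 1963 lay within the counting interval of the fold as measured and 406 outside it. The interval has no pseudocount, so for a gene near 0 in 1 library, such as Rbm42, the ratio as measured lies outside it already. Another 11, all of genes past 2-fold as measured, changed sign. Sign changes of genes without a call are not among the 11. Of such genes, Il5 ranged from -0.073 to 0.56, Il13 from -0.10 to 0.85 and Kit from -0.71 to 0.37. Less the bin median Ikzf2 (0.44), Bcl2 (0.81), Ptprc (0.015), Zeb2 (0.41), Cnot6l (0.024), Rora (0.44), Fkbp5 (0.16), Nr3c1 (0.24), Tnfaip8 (0.76) and Cpt1a (0.035) changed sign, all long-intron genes. Klrk1 changed sign to 0.67 without cells that carried 2 or more markers of another type, a step that kept 2265 naïve and 263 week 3 cells. With only markers found in at most 5% of naïve cells, an alternative chosen after seeing the data, 5445 and 576 cells stayed. With long-intron genes left out, 1 counted gene of the TGF-beta list remained, with a log2 ratio of 0.45. The median over all short-intron genes counted was 0.38. Over the 14 alternatives that recompute a gene's ratio, Hes1, Cxcl10, Bcl2a1d, Trdv4, Eno1, Ldha, Csf2, Spry2, Gpr183, Egr1 and Egr3 stayed past 2-fold in 14. Calca did so in 11, Cxcl2 in 12, Cxcl1 and Hilpda in 13, Nr4a1 in 7, and Dgat1 in 6. No paired analysis was possible because each side has 1 library and no test was run. Causes of these shifts were not tested.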
